A study of Caenorhabditis elegans with 6 samples.

Results

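The 6 genes described here are mlt-7, mlt-8, mlt-9, mlt-10, mlt-11 and lin-42, which take part in the larval moulting cycle of the nematode Caenorhabditis elegans. They were taken by gene name from a count table of 22407 genes, in which each name had 1 row, and all 6 were among the 14683 genes that passed the filter on low counts. RNA was sequenced from pools of whole adult worms of strain AM140, which carries the transgene rmIs132 [unc-54p::Q35::YFP], a run of glutamines fused to yellow fluorescent protein under a muscle myosin promoter. All 6 libraries share this transgene. The worms ate HT115 bacteria that carried an empty vector (EV, 3 libraries) or expressed double-stranded RNA against the 3'UTR of the receptor gene gtr-1 (gtr-1 RNAi, 3 libraries). Both generations were kept on the same bacteria at 20 °C. Eggs for generation 2 came from bleaching the parents at adult day 1, and generation 2, washed daily to remove its progeny, was harvested at adult day 6. Per the series title, the comparison concerns a neuronal G protein-coupled receptor and protein homeostasis in distal tissues.

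A nematode larva replaces its cuticle at the end of each larval stage, and the genes for this work are switched on once per stage in the epidermis. The nuclear receptor NHR-23 and other transcription factors drive the cycle, LIN-42 helps to time it, and secreted proteins build, cross-link and release the cuticle. Adults do not moult. In whole-worm RNA, fewer cells that express a gene and less RNA per cell cannot be told apart.

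The 6 libraries held 33254426 to 41902475 counts each. The first principal component of log2 CPM (read counts scaled to the depth of each library, with TMM factors) held 72.7% of the variance and placed gtr-1 RNAi replicate 3 at -6.6, gtr-1 RNAi replicates 1 and 2 at 41.8 and 59.9, and the EV libraries from -40.6 to -19.2. The closest pair of libraries was EV replicate 1 and gtr-1 RNAi replicate 3. The targeted gene gtr-1 was at 0.547 ± 0.109 CPM with EV and 0.544 ± 0.0707 CPM with gtr-1 RNAi (SD, n = 3 each). These values rest on 16 to 25 counts per library, and gene counts do not separate worm mRNA from any RNA of the feeding bacteria that carries the targeted 3'UTR, whose part was not tested. They therefore do not settle whether worm gtr-1 mRNA was reduced. EV and gtr-1 RNAi below name the libraries by their labels, and directions are of one set of labelled libraries against the other. No label states that replicates were grown as separate cultures, and the p-values therefore reflect only the spread among these libraries, which could be technical. The markers of intestine, body wall muscle, pharynx, neurons, germline and epidermis checked here were all detected in these whole worms, with no marker at 0 counts in all libraries.

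Of the 6 genes, mlt-8, mlt-9, mlt-10, mlt-11 and lin-42 had lower mean levels in the gtr-1 RNAi libraries, with means 1.5 to 3.03 times higher under EV, and mlt-7 had a higher mean, at 1.22 times its EV level. No member passed the edgeR quasi-likelihood test at an adjusted p under 0.05. That test called 0% of all 14683 genes higher and 0% lower, with 0.112 as the smallest adjusted p. With an unadjusted p under 0.05 it gave 4 members lower and 0 higher, where 15.3% of all genes were lower and 12.9% higher. The DESeq2 Wald test called 3 members lower, mlt-8, mlt-10 and lin-42, and 0 higher, where it called 7.58% of the 12802 genes with an adjusted p lower and 6.66% higher. Limma-voom called 0 members, and 0% of all 14683 genes in either direction (smallest adjusted p 0.102). With sample quality weights it called 5 members lower and mlt-7 higher, where 14.9% of all genes were called lower and 8.98% higher. Those weights were estimated from the same 6 libraries. The median log2 fold change was -1.19 over the 6 members and -0.0030 over all tested genes.

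**Figure D1:**
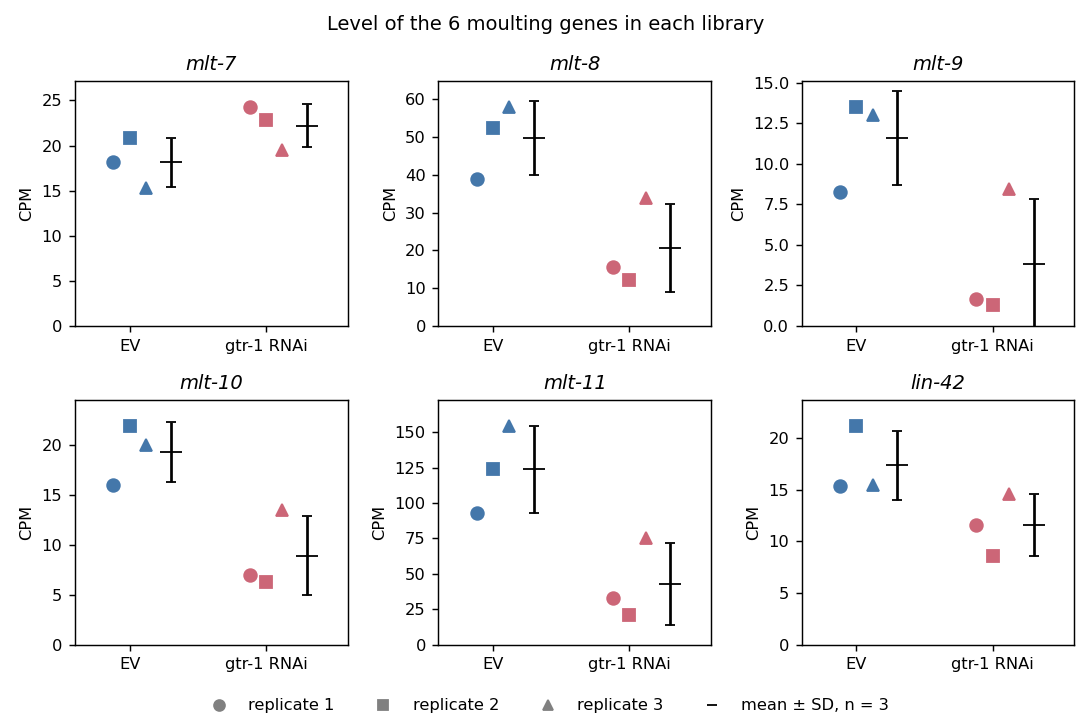
Level of each moulting gene in CPM (vertical axes from 0, a scale per gene) in the 3 EV and the 3 gtr-1 RNAi libraries, 1 symbol per library, with the mean ± SD beside them; the lower bar of mlt-9 under gtr-1 RNAi (3.81 ± 4.02 CPM) is cut at 0. In the 5 genes other than mlt-7, gtr-1 RNAi replicates 1 and 2 lie below every EV library and gtr-1 RNAi replicate 3 lies nearer to EV.

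Beginning with the secreted and matrix proteins, mlt-11 (WBGene00012186) encodes a protein with Kunitz domains, the fold of many protease inhibitors, and lies on chromosome V at 20667205 to 20678537 (build WBcel235, + strand), with 16 merged exons and 8 annotated transcripts. Counts of 3512, 4902 and 5302 were found in EV replicates 1, 2 and 3, and of 1152, 824 and 3078 in gtr-1 RNAi replicates 1, 2 and 3. Scaled to depth, it stood at 93.3, 124 and 155 CPM with EV and at 32.6, 20.7 and 75.4 CPM with gtr-1 RNAi. All 3 gtr-1 RNAi libraries were below all 3 EV libraries, and replicates 1 and 2 were far below replicate 3. The group means were 124 ± 30.7 and 42.9 ± 28.8 CPM (SD, n = 3 each), a log2 fold change of -1.53 ± 0.54 SE that missed the threshold in edgeR (adjusted p = 0.157) and in DESeq2 (adjusted p = 0.0608). On the same strand, exons of the noncoding RNA genes W01F3.4 and W01F3.5 cover 2.06% of its exon bases, so a small part of its counts is uncertain.

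The gene mlt-10 (WBGene00015646) encodes a secreted protein with proline-rich repeats, and its promoter is widely used in reporters of the moult. It lies on chromosome II at 546705 to 552032, on the + strand, with 8 exons. Counts were 602, 865 and 686 in EV replicates 1 to 3 and 246, 250 and 550 in gtr-1 RNAi replicates 1 to 3. These are 16, 21.9 and 20.0 CPM with EV against 6.95, 6.27 and 13.5 CPM with gtr-1 RNAi. The groups did not overlap, and gtr-1 RNAi replicates 1 and 2 were close to each other. Means were 19.3 ± 3.02 and 8.90 ± 3.97 CPM, with a log2 fold change of -1.12 ± 0.32 SE by edgeR (adjusted p = 0.119). DESeq2 called it lower, with an adjusted p of 0.00053, the smallest among the 6 members, and the call was lost when EV replicate 2 (adjusted p = 0.0507), EV replicate 3 (0.0525) or gtr-1 RNAi replicate 1 (0.0696) was left out. Exons of lips-7 and T27A1.3 on the same strand cover 5.34% of its exon bases.

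Its neighbour mlt-8 (WBGene00021095) is named, like the other mlt genes, for the failed moult that follows its loss. It lies 17177 bases from mlt-10 on the opposite strand of chromosome II, at 569210 to 572110, with 3 protein-coding genes wholly within the gap. The gene mlt-8 has 4 exons. Its counts were 1468, 2072 and 1985 in the EV libraries and 553, 489 and 1386 in the gtr-1 RNAi libraries, in the order of their replicate numbers. In CPM these were 39.0, 52.5 and 57.9 under EV and 15.6, 12.3 and 33.9 under gtr-1 RNAi. As with mlt-10 and mlt-11, the groups did not overlap and gtr-1 RNAi replicate 3 came nearest to EV. The means of 49.8 ± 9.74 and 20.6 ± 11.7 CPM gave a log2 fold change of -1.27 ± 0.44 SE (edgeR adjusted p = 0.149; DESeq2 adjusted p = 0.0486). With any 1 library left out other than gtr-1 RNAi replicate 3, the DESeq2 adjusted p of mlt-8 ran from 0.0763 to 0.237.

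The gene mlt-9 (WBGene00008605) lies on chromosome X at 15101786 to 15107797, on the − strand, with 10 merged exons and 2 transcripts. It had the widest spread of the 6: counts were 311, 533 and 447 under EV and 60, 51 and 345 under gtr-1 RNAi, in replicate order. The 95% exact Poisson interval of the lowest count, 51, was 38 to 67.1, which covers counting error only. In CPM, mlt-9 was at 8.26, 13.5 and 13 under EV and at 1.70, 1.28 and 8.45 under gtr-1 RNAi. Replicates 1 and 2 of gtr-1 RNAi stood at 14.6% and 11% of the EV mean, while replicate 3 stood at 72.8%, just above EV replicate 1 at 71.2%, so the groups overlapped. Its log2 fold change of -1.60 ± 0.78 SE was the lowest of the 6 and had the largest error, and it missed the threshold in edgeR (adjusted p = 0.244) and in DESeq2 (adjusted p = 0.194).

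The peroxidase gene mlt-7 (WBGene00022743) did not share this pattern of libraries. MLT-7 is a haem peroxidase that helps to cross-link cuticle collagen, and its gene lies on chromosome II at 4393007 to 4404850, on the + strand, with 9 exons. Counts were 686, 822 and 526 under EV and 858, 910 and 799 under gtr-1 RNAi, or 18.2, 20.8 and 15.3 CPM against 24.2, 22.8 and 19.6 CPM. The groups overlapped, because gtr-1 RNAi replicate 3 lay below EV replicate 2. Means were 18.1 ± 2.74 and 22.2 ± 2.40 CPM, a log2 fold change of 0.29 ± 0.13 SE (edgeR adjusted p = 0.183; DESeq2 adjusted p = 0.121), which was 0.19 without EV replicate 3.

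The timing gene lin-42 (WBGene00018572) encodes a relative of the circadian protein Period and belongs to the heterochronic pathway, which sets the order of larval stages. It lies on chromosome II at 1233236 to 1252359, on the − strand, with 11 merged exons and 7 transcripts, whose reads are not separated in gene counts. Its counts were 580, 838 and 532 under EV and 410, 344 and 598 under gtr-1 RNAi, or 15.4, 21.2 and 15.5 CPM against 11.6, 8.63 and 14.6 CPM. The groups did not overlap in CPM, by a margin of less than 1 CPM between gtr-1 RNAi replicate 3 and EV replicate 1. Means were 17.4 ± 3.32 and 11.6 ± 3.01 CPM, and the log2 fold change of -0.58 ± 0.22 SE passed in DESeq2 (adjusted p = 0.0303) and not in edgeR (adjusted p = 0.147). With any 1 library left out other than gtr-1 RNAi replicate 3, the DESeq2 adjusted p of lin-42 ran from 0.0679 to 0.259.

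**Figure D2:**
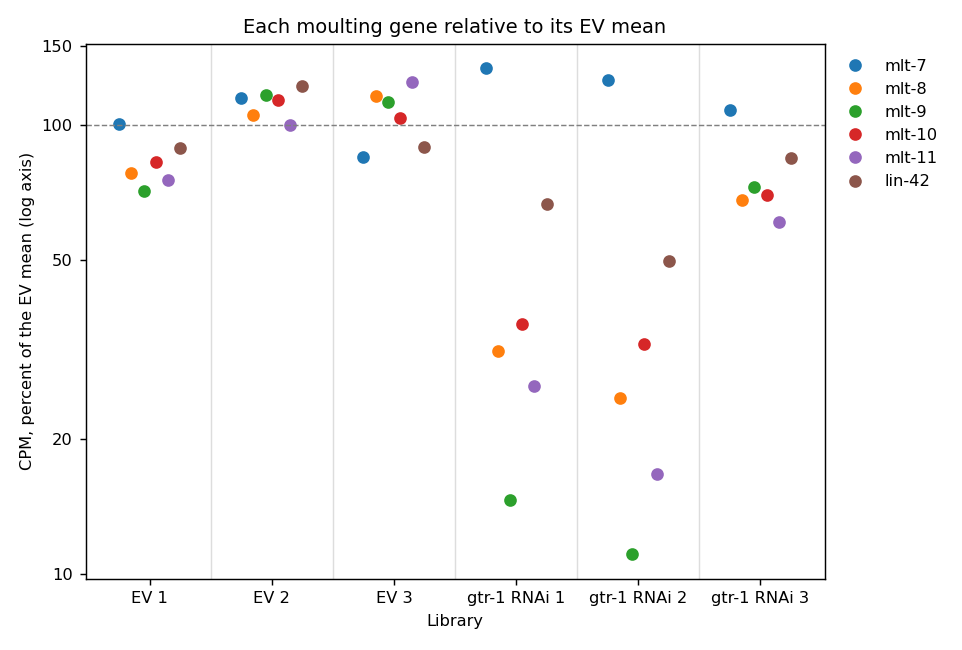
CPM of each moulting gene in each library as a percent of that gene's EV mean (log axis, dashed line at 100%), 1 colour per gene. In gtr-1 RNAi replicates 1 and 2 mlt-9 is lowest, at 14.6% and 11%, followed upwards by mlt-11, mlt-8, mlt-10 and lin-42, while mlt-7 lies at 134% and 126%.

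Relative to the EV mean, the order of the 6 genes was the same in gtr-1 RNAi replicates 1 and 2. From the bottom it ran mlt-9, mlt-11 (26.2% and 16.7%), mlt-8 (31.4% and 24.6%), mlt-10 (36% and 32.5%), lin-42 (66.7% and 49.6%) and mlt-7. In gtr-1 RNAi replicate 3 the 5 genes other than mlt-7 stood between 60.8% and 84.2%. EV replicate 1 was the lowest EV library for these 5 genes, at 71.2% to 88.6%. Within the gtr-1 RNAi group the coefficient of variation was 106% for mlt-9, 67.1% for mlt-11, 56.6% for mlt-8 and 44.7% for mlt-10, against 15.6% to 25% for these genes under EV. It was 25.9% for lin-42 and 10.8% for mlt-7.

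All tested genes set the scale for these folds. The 6 members were chosen with earlier results of these data known, so the shares given here are a description and not a test. A log2 fold change as low as that of mlt-9 or lower was found for 1.31% of tested genes, and the same share was 1.68% for mlt-11, 3.27% for mlt-8, 4.60% for mlt-10 and 12.4% for lin-42. A log2 fold change as high as that of mlt-7 or higher was found for 12.4%. The groups did not overlap for 4 of the 6 members, all lower under gtr-1 RNAi, where 19.6% of all tested genes were lower without overlap and 16.6% higher.

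**Figure D3:**
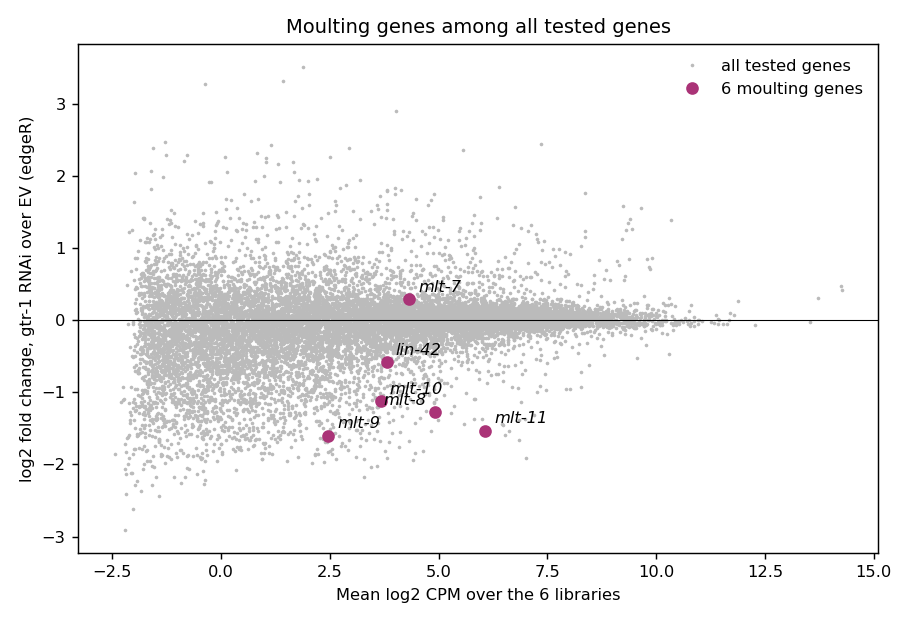
Log2 fold change of gtr-1 RNAi over EV by edgeR against the mean log2 CPM for all 14683 tested genes (grey) and the 6 moulting genes (named points). The members have intermediate levels, and all but mlt-7 (0.29) lie below 0, down to -1.60 for mlt-9.

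Per kilobase of merged exon, mlt-8 had the highest level of the 6 in both groups. Under EV, the order was mlt-8 (45.0 ± 8.80 CPM per kilobase), mlt-11 (12.7 ± 3.13), mlt-10 (8.25 ± 1.29), mlt-7 (7.21 ± 1.09), mlt-9 (5.54 ± 1.39) and lin-42 (4.34 ± 0.829), with SD and n = 3 throughout. In that order mlt-8 and mlt-11, and mlt-11 and mlt-10, did not overlap, while each later pair of neighbours did. Under gtr-1 RNAi the order was mlt-8 (18.6 ± 10.5 CPM per kilobase), mlt-7 (8.83 ± 0.954), mlt-11 (4.38 ± 2.94), mlt-10 (3.80 ± 1.70), lin-42 (2.90 ± 0.750) and mlt-9 (1.82 ± 1.92). There mlt-7 overlapped with neither neighbour, and the 4 genes below it overlapped with their neighbours. The merged length counts exons of every isoform, so the level of genes with many transcripts, mlt-11 and lin-42, may be understated.

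The members' folds depended on gtr-1 RNAi replicate 3. Without it, edgeR called 5 members lower and 0 higher, where 15% of all tested genes were called lower and 8.77% higher. The log2 fold changes of that fit were -2.96 ± 0.27 SE for mlt-9 (adjusted p = 0.000673), -2.22 ± 0.37 for mlt-11 (adjusted p = 0.0317), -1.84 ± 0.22 for mlt-8 (adjusted p = 0.00575), -1.55 ± 0.15 for mlt-10 (adjusted p = 0.000444) and -0.78 ± 0.19 for lin-42 (adjusted p = 0.0234). That of mlt-7 was 0.38 ± 0.12 (adjusted p = 0.0546). DESeq2 without this library called 5 members lower and mlt-7 higher (adjusted p = 0.0247), where it called 12.9% of genes lower and 10.0% higher. No edgeR fit that left out any of the other 5 libraries called a member, and these fits called 0 of all tested genes in either direction.

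**Figure D4:**
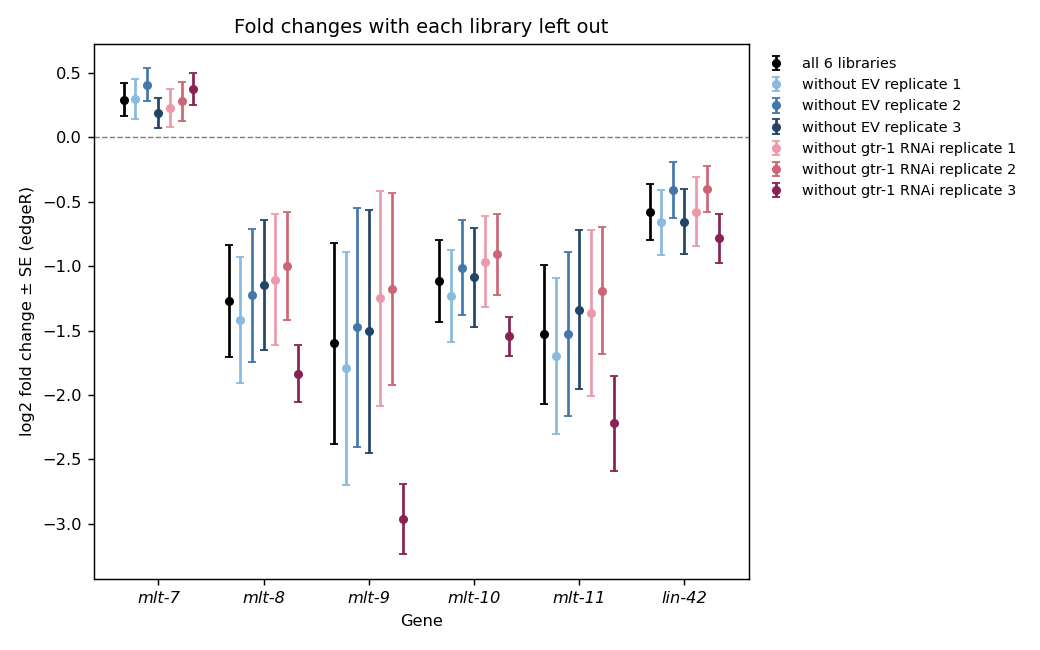
Log2 fold change ± SE by edgeR for each moulting gene with all 6 libraries (black) and with each library left out in turn (colours). The sign is the same in every fit, and the value furthest from 0 is that without gtr-1 RNAi replicate 3 for the 5 lower genes, for example -2.96 for mlt-9.

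The other genes of the moulting pathway were read from companion lists. Counts for every list below are to be read against the shares over all genes. These were 7.58% lower and 6.66% higher by DESeq2, and 15.3% lower and 12.9% higher at an unadjusted edgeR p under 0.05. A list near these shares does not stand out from all genes. The lists were chosen with earlier results of these data known, so a list above these shares is a description and not a test. Among 16 regulators of moulting, edgeR called 0 higher and 0 lower, with 1 higher and 8 lower at an unadjusted p under 0.05. DESeq2 called 1 higher and 3 lower, and the median log2 fold change was -0.16. The ROR-type receptor gene nhr-23, a driver of the cycle, was at 66.3, 59.2 and 61.2 CPM with EV and 70.1, 73.7 and 69.5 CPM with gtr-1 RNAi, higher by DESeq2 (log2 fold change 0.19 ± 0.05 SE by edgeR; DESeq2 adjusted p = 0.0455). The receptor gene nhr-25 went the other way, from 15, 18.2 and 26.3 CPM with EV to 6.84, 5.69 and 14.1 CPM with gtr-1 RNAi (log2 fold change -1.16 ± 0.41 SE, edgeR adjusted p = 0.149; DESeq2 adjusted p = 0.0711). These levels of nhr-25 follow the same order of gtr-1 RNAi libraries as mlt-8. The DNA-binding protein gene peb-1 (edgeR log2 fold change -0.86 ± 0.26 SE, DESeq2 adjusted p = 0.00586) and the membrane-bound transcription factor gene myrf-2 (-0.22 ± 0.05, DESeq2 adjusted p = 0.0212) were lower by DESeq2, as was the Grainyhead-type factor gene grh-1 (-0.87 ± 0.26, DESeq2 adjusted p = 0.00281, named after its value was seen), and bed-3 (-0.34 ± 0.11, DESeq2 adjusted p = 0.0866) was not called. The zinc finger gene blmp-1 had a log2 fold change of 0.080 ± 0.10 SE.

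Some genes that share the mlt name or its process act inside the cell. The kinase genes nekl-2 and nekl-3 and the genes of their ankyrin-repeat partners, mlt-2, mlt-3 and mlt-4, serve endocytosis in the epidermis during moulting. Their edgeR log2 fold changes were 0.018 ± 0.07 SE for nekl-2, 0.058 ± 0.14 for nekl-3, 0.054 ± 0.17 for mlt-2, 0.26 ± 0.13 for mlt-3 and 0.26 ± 0.19 for mlt-4. The groups overlapped for all 5, and neither edgeR nor DESeq2 called any of them (mlt-2, mlt-3 and mlt-4 were picked out after their values were seen).

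The apical matrix is the sheet of secreted protein under which new cuticle forms. Of 31 genes for this matrix and its proteases and receptors, edgeR called 0 in either direction, with 21 lower and 3 higher at an unadjusted p under 0.05. DESeq2 called 15 lower and 3 higher, where it called 7.58% of all genes lower and 6.66% higher. Of the 31, 25 had negative log2 fold changes, and the median was -1.26. Without overlap between the groups, 24 were lower and 3 higher, where 19.6% of all tested genes were lower and 16.6% higher. The matrix protein gene noah-1 was at 161, 186 and 252 CPM with EV and at 61.5, 40.8 and 127 CPM with gtr-1 RNAi (log2 fold change -1.39 ± 0.48 SE, edgeR adjusted p = 0.151). Like mlt-8, mlt-9, mlt-10 and mlt-11, it was lowest in gtr-1 RNAi replicates 1 and 2 and nearer to EV in replicate 3. The log2 fold changes were -1.45 ± 0.48 SE for its relative noah-2 (DESeq2 adjusted p = 0.0426) and -1.37 ± 0.47 for the fibrillin-like gene fbn-1 (DESeq2 adjusted p = 0.0538). The patched-related genes ptr-6 (-0.60 ± 0.13, DESeq2 adjusted p = 0.00952) and ptr-16 (-0.93 ± 0.21, DESeq2 adjusted p = 0.0133) were lower by DESeq2. The astacin protease genes nas-7 (-0.74 ± 0.17, DESeq2 adjusted p = 0.0652) and nas-37 (-0.14 ± 0.13, DESeq2 adjusted p = 0.591) were not called. The lysosomal cathepsin gene cpz-1 was higher by DESeq2 (0.47 ± 0.11, adjusted p = 0.000487). The other higher calls of DESeq2, named after their values were seen, were the cathepsin gene cpl-1 (0.56 ± 0.18) and grl-4 (0.38 ± 0.10), and the lowest log2 fold change of the list was that of grl-7 (-1.89 ± 0.84). Without gtr-1 RNAi replicate 3, edgeR called 24 of the 31 lower and 2 higher.

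**Figure D5:**
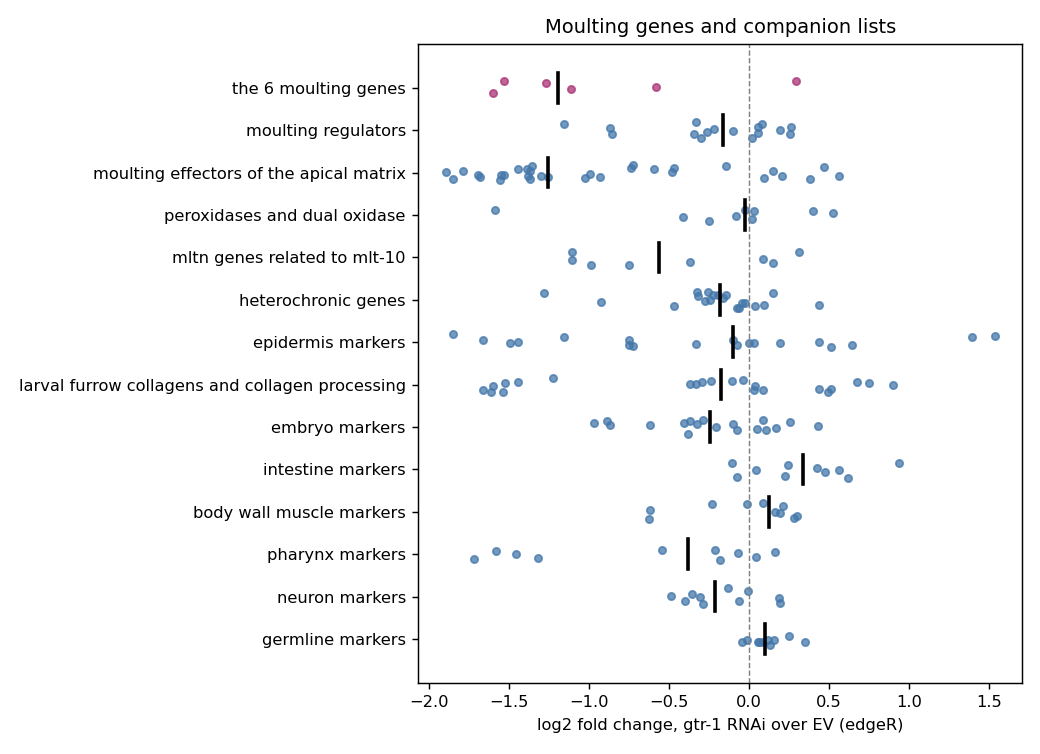
Log2 fold change of gtr-1 RNAi over EV by edgeR for the tested genes of each companion list (1 point per gene, black bars at the medians, points spread vertically only for legibility), with the 6 moulting genes in the top row. The medians of the 6 moulting genes (-1.19) and the apical matrix list (-1.26) lie lowest, and that of the intestine markers (0.34) lies highest.

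The other gene families of 2 members were measured as well. Of 13 mltn genes, which are related to mlt-10, 12 had counts and 8 were tested. Of these, edgeR and DESeq2 called 0, with 3 lower and 1 higher at an unadjusted edgeR p under 0.05 and a median log2 fold change of -0.56. Log2 fold changes were -0.37 ± 0.12 SE for mltn-1, -1.11 ± 0.39 for mltn-7, -0.75 ± 0.26 for mltn-12 and 0.31 ± 0.13 for mltn-9. Of 9 tested genes for peroxidases and the dual oxidase system that supplies them, edgeR called 0, with 2 higher and 1 lower at an unadjusted p under 0.05, DESeq2 called 1 higher and 0 lower, and the median was -0.026. The peroxidasin gene pxn-1 was the one called by DESeq2 (0.52 ± 0.16, DESeq2 adjusted p = 0.0159), pxn-2 had -0.42 ± 0.15 and doxa-1, the maturation factor of the dual oxidase, had 0.40 ± 0.13. The peroxidase gene skpo-2 stood apart from mlt-7, at 4.20, 5.47 and 5.40 CPM with EV and 0.678, 0.778 and 3.50 CPM with gtr-1 RNAi (-1.59 ± 0.64, edgeR adjusted p = 0.177).

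Among 20 heterochronic genes other than lin-42, edgeR called 0, with 10 lower and 1 higher at an unadjusted p under 0.05. DESeq2 called 8 lower and 0 higher, where it called 7.58% of all genes lower and 6.66% higher, and the median log2 fold change was -0.18. The early-stage factor gene lin-14 was at 30.4, 41.1 and 35.2 CPM with EV and 15.6, 14.5 and 26.2 CPM with gtr-1 RNAi, lower by DESeq2 (log2 fold change -0.92 ± 0.26 SE by edgeR; DESeq2 adjusted p = 0.000313). The kinase gene kin-20, whose product is related to the clock kinase Doubletime, was lower by DESeq2 (-0.23 ± 0.06, DESeq2 adjusted p = 0.0396). So were the Argonaute gene alg-1 (-0.32 ± 0.07, DESeq2 adjusted p = 0.00281), the amyloid precursor-like gene apl-1 (-0.33 ± 0.08, DESeq2 adjusted p = 0.00235), sea-2 (-0.28 ± 0.07, DESeq2 adjusted p = 0.00945) and the Pumilio-family gene puf-9 (-0.19 ± 0.04, DESeq2 adjusted p = 0.0311). The RNA-binding protein gene lin-28 had a log2 fold change of -0.064 ± 0.04 SE and the adult-stage factor gene lin-29 one of 0.44 ± 0.13 (DESeq2 adjusted p = 0.0625), neither called.

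Markers of the cells and stages that could carry these transcripts differed between the groups to different extents, and their part in the members' levels was not tested. Of 19 tested epidermis markers, DESeq2 called 3 lower and 1 higher and the median log2 fold change was -0.10. Their summed level was 981 to 1125 CPM with EV and 758 to 929 CPM with gtr-1 RNAi. Few genes carried this difference. Mean CPM with EV and gtr-1 RNAi was 236 and 74.3 for sqt-3 and 159 and 94.3 for ajm-1. It was 144 and 137 for lin-26, 228 and 213 for vab-10, and 127 and 199 for col-19 (sqt-3, lin-26 and vab-10 named after their values were seen). Over the 19 tested markers, log2 fold changes were negative for 12 and positive for 7. They ran from -1.85 for wrt-2 to 1.54 for bli-1 (both named after their values were seen). The value of bli-1 rests on 8 to 39 counts per library. Of these markers, nhr-23, nhr-25, elt-3 and wrt-2 are also in the moulting lists above. The markers dpy-7, rol-6, sqt-1, sqt-2 and sqt-3 are also in the collagen list below. The epidermal factor gene elt-1 (-0.75 ± 0.18 SE, DESeq2 adjusted p = 0.000336), the junction gene ajm-1 (-0.75 ± 0.20, DESeq2 adjusted p = 0.0129) and che-14 (-0.73 ± 0.19, DESeq2 adjusted p = 0.0173) were lower by DESeq2, nhr-23 was the marker called higher, and the adult cuticle collagen gene col-19 had 0.65 ± 0.30 (DESeq2 adjusted p = 0.165). The collagen list holds furrow collagens, other cuticle collagens and collagen-processing enzymes. It summed to 2046 to 2425 CPM with EV and 1493 to 1890 CPM with gtr-1 RNAi. The enzyme gene pdi-2 alone held 828 to 945 CPM of the EV sum. Of 22 tested genes, DESeq2 called 3 lower and 0 higher, and the median was -0.17. Log2 fold changes were negative for 13 and positive for 9, from -1.67 for sqt-3 to 0.90 for dpy-13. Among the furrow collagen genes, dpy-2 had -1.52, dpy-3 -1.61 and dpy-9 -0.37 (these and the ends of the range named after their values were seen). The furrow collagen gene dpy-7 was at 14.8, 19.4 and 20.3 CPM with EV and 4.55, 2.81 and 12.6 CPM with gtr-1 RNAi (-1.44 ± 0.58, edgeR adjusted p = 0.184). Its partner dpy-10 had -1.23 ± 0.42, and the collagen-modifying enzyme genes dpy-18 (-0.33 ± 0.09), phy-2 (-0.30 ± 0.08) and pdi-2 (-0.24 ± 0.06) were lower by DESeq2. Of 20 embryo markers 18 were tested. DESeq2 called 2 lower and 0 higher, the median was -0.25, and the summed level was 309 to 317 CPM with EV and 295 to 307 CPM with gtr-1 RNAi. Most of this sum came from pal-1 and die-1, so it says little about the other embryo markers. The level of pal-1 was 147 to 161 CPM with EV and 159 to 173 CPM with gtr-1 RNAi (named after its value was seen). That of die-1 was 94.2 to 103 CPM with EV and 74.1 to 87.6 CPM with gtr-1 RNAi. The genes called were die-1 (-0.29 ± 0.07) and, named after its value was seen, unc-130 (-0.97 ± 0.36). Others not called were hlh-1 (-0.62 ± 0.21), vab-7 (-0.87 ± 0.31) and tbx-11 (-0.37 ± 0.13). By edgeR, 0 genes of these lists were called. At an unadjusted p under 0.05, 5 epidermis, 4 collagen and 5 embryo genes were lower and 2, 0 and 0 higher. The shares of all tested genes there were 15.3% lower and 12.9% higher. By DESeq2, 7.58% of genes were called lower and 6.66% higher.

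Markers of other tissues had medians of either sign. The 10 intestine markers had a median log2 fold change of 0.34, with 8 positive and 2 negative. DESeq2 called 3 higher, act-5 (0.94 ± 0.23 SE), cpr-6 (0.61 ± 0.19) and mtl-2 (0.56 ± 0.22), and 0 lower. Their summed level was 29335 to 40739 CPM with EV and 38408 to 53863 CPM with gtr-1 RNAi. Most of this sum came from the yolk protein genes vit-2 (14190 to 19569 CPM with EV, named after its value was seen) and vit-6 (13835 to 19467 CPM). For both of these the groups overlapped. The 10 germline markers had a median of 0.099, with 2 higher and 0 lower by DESeq2, spn-4 (0.35 ± 0.06) and pos-1 (0.25 ± 0.05), and summed to 11794 to 12147 CPM with EV and 12108 to 13093 CPM with gtr-1 RNAi. The 10 body wall muscle markers had a median of 0.13, with 1 lower, tni-1 (-0.62 ± 0.12), and 0 higher, and summed to 1217 to 1898 CPM with EV and 1671 to 1965 CPM with gtr-1 RNAi. The 10 neuron markers had a median of -0.21, with 1 lower, unc-31 (-0.49 ± 0.15), and 0 higher, and summed to 395 to 454 CPM with EV and 410 to 433 CPM with gtr-1 RNAi. The 10 pharynx markers had a median of -0.38, with 0 called by DESeq2, and summed to 91.4 to 129 CPM with EV and 74.6 to 109 CPM with gtr-1 RNAi. Of them, 8 were negative and 2 positive. Log2 fold changes were -1.58 ± 0.69 for phat-1, -1.46 ± 0.57 for abu-11, -1.32 ± 0.62 for ceh-22 and -0.55 ± 0.27 for pha-4. Counts of phat-1, abu-11 and ceh-22 were 2 to 92 per library. Without gtr-1 RNAi replicate 3, edgeR called 5 pharynx markers lower and 0 higher, where it called 15% of all tested genes lower and 8.77% higher. By edgeR with 6 libraries, 0 genes of these lists were called. At an unadjusted p under 0.05, 4 intestine and 5 germline genes were higher and 2 muscle, 3 neuron and 1 pharynx genes lower. The shares of all tested genes there were 12.9% higher and 15.3% lower. By DESeq2, 6.66% of genes were called higher and 7.58% lower.

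The 5 genes outside the group whose log2 CPM over the 6 libraries followed the members' mean profile most closely were F26A10.2, hhat-1, T19A5.3, Y47D3B.6 and T14B1.1. Their Pearson correlations with the profile ran from 0.9987 to 0.9998 over 6 libraries, out of 10639 genes with a mean log2 CPM over 1. All points share the libraries and their depth, and the first principal component holds most of the variance of the whole table. The gene F26A10.2 was at 17.7 ± 3.09 CPM with EV and 7.63 ± 4.43 CPM with gtr-1 RNAi (log2 fold change -1.21 ± 0.42 SE, edgeR adjusted p = 0.144). The log2 fold changes were -1.53 ± 0.52 SE for hhat-1, -1.69 ± 0.61 for T19A5.3, -1.52 ± 0.55 for Y47D3B.6 and -1.03 ± 0.34 for T14B1.1. The members' mean profile was higher with EV than with gtr-1 RNAi. Negative folds of these 5 genes therefore follow from the way they were chosen.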

How the data were processed

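Stranded mRNA libraries were made from pooled whole worms, per the labels' protocols. The submitters' processing notes name STAR, HTSeq and the build WBcel235. Their versions, the annotation and the strand setting are not given in sources used here. The authors' deposited table holds whole-number counts of reads, and only these were tested. It also holds the authors' normalized values, a signal that is each count over a factor for its library, listed where the 6 counts of a gene reach a sum of 10. These were not used. Count columns headed GT and a number were matched to the titles GTR1 with that number; what the letters OL and ROL in the headers mean is not stated.

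Genes were filtered with filterByExpr, scaled with TMM and tested over the whole table by edgeR's robust quasi-likelihood fit (edgeR 4.0.16, R 4.3.3), with no covariate and Benjamini-Hochberg adjustment at 0.05. DESeq2 1.42.0 and limma-voom (limma 3.58.1) were alternatives. Genes to which DESeq2 gives no adjusted p are left out of its shares. CPM are TMM-adjusted. Fold changes in the text are by edgeR unless DESeq2 is named for them. The SE of an edgeR fold was derived from its test and is not a separate measure of spread. It is the size of the unshrunk log2 coefficient over the square root of the F statistic. The lowest count of a member was 51, in a library total of at least 33254426. Coordinates, exons and overlaps come from the Ensembl annotation of WBcel235, release 115, which holds all 22407 identifiers.

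The members and lists were chosen with earlier results of these data known. Text names the members, gtr-1, up to 4 genes per list with the smallest edgeR p, 16 fixed pathway genes, and the 5 genes most like the members' mean profile (log2 CPM, prior count 2). Genes outside this rule are marked as named after their values were seen, except grl-7, given as the end of a range, and genes named as shared between lists. The scripts were tested on simulated data. Other settings tried were DESeq2 size factors, library size alone, other filters, a threshold of 0.1, no robust estimation, no 10 most abundant genes, the replicate number as a block, and each library left out. No sequence of the members is shown.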

Additional observations from a re-analysis of the deposited data

How the results depend on the processing

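Each member kept its direction in all 23 alternatives. Calls that edgeR with 6 libraries did not make were made by DESeq2 for mlt-8 (log2 fold change -1.27), mlt-10 (-1.11) and lin-42 (-0.57), and by limma-voom with sample quality weights for mlt-7 (0.37), mlt-8 (-1.53), mlt-9 (-2.44), mlt-10 (-1.33), mlt-11 (-1.82) and lin-42 (-0.58). With each library left out, by edgeR or DESeq2, log2 fold changes ran from 0.19 to 0.41 for mlt-7, -1.84 to -0.997 for mlt-8, -2.96 to -1.18 for mlt-9, -1.55 to -0.91 for mlt-10, -2.22 to -1.19 for mlt-11 and -0.78 to -0.40 for lin-42. The number of members called ran from 0 to 1 higher and 0 to 5 lower in these fits, and that of all genes from 0 to 1555 higher and 0 to 2236 lower. With 6 libraries, DESeq2 called 3 members lower, and 853 genes higher and 971 lower; limma-voom with quality weights called 1 member higher and 5 lower, and 1318 genes higher and 2181 lower. The cause was not tested. With library size alone, genes at an unadjusted p under 0.05 were 1137 higher and 2817 lower, against 1898 and 2242 with TMM, and the median of all genes was -0.060.

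No label states that the replicate numbers pair the samples. Deviations from the group means correlated at 0.240, -0.107 and 0.197 for numbers 1, 2 and 3. Between unlike numbers they correlated at -0.326 to 0.205. With 3 libraries per group, these values do not settle whether the numbers pair the samples. With the replicate block, edgeR called 0 members, 467 genes higher and 492 lower, and DESeq2 called 4 members lower, mlt-8 (-1.38), mlt-9 (-2.10), mlt-10 (-1.18) and mlt-11 (-1.70), with 736 genes higher and 935 lower. In the companion lists, edgeR with 6 libraries called 0 genes in either direction. Across the alternatives, 134 of 624 counts of calls rose above 0 and 490 stayed at 0. No 2 libraries agreed within sampling noise (lowest chi-square per degree of freedom 5.15). Depth limits mlt-9 most, with 51 to 533 counts per library.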
